A study of Mus musculus with 4 samples.

Results

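Mouse genes of synaptic vesicles and regulated exocytosis were described across 4 kinds of cell, each measured on 1 Affymetrix oligonucleotide array. The members were the genes whose only symbol in the array annotation belongs to the synaptotagmin, synapsin, syntaxin, syntaxin-binding, VAMP, SNAP, synaptophysin, SV2, Rab3, complexin, RIM, Unc13, CAPS (Cadps) and synaptogyrin families, and they numbered 76 of the 18193 genes measured. Where a gene had several probe sets, the brightest on average over the 4 arrays stood for it, and the 76 members had 176 probe sets in all. The cells were a sample labelled as sorted HB9-GFP+ cells, granule cells of the cerebellum on postnatal day 6, sorted Sox1 neural stem cells, and undifferentiated embryonic stem (ES) cells. HB9 is a homeodomain factor of motor neurons, and the reporter ES line expresses green fluorescent protein (GFP) under its control. Per the labels, this line was grown with leukemia inhibitory factor over mouse embryonic fibroblasts treated with mitomycin C. Retinoic acid at 0.1 uM, purmorphamine at 0.2 uM and Sonic hedgehog were given from day 5 to day 9 of differentiation, and the GFP+ cells were collected on day 8, before the stated end of the factors. The labels call the Sox1 cells sorted without naming the marker or reporter used, do not say how the granule cells were isolated, and give no strain or line for either. With 1 array per group no difference has a replicate check, and no p-value or standard error is given.

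Release of neurotransmitter depends on a cycle in which vesicles are filled, docked at the active zone, primed, and fused with the plasma membrane on entry of calcium. Fusion is driven by a complex of SNARE proteins, in which a VAMP on the vesicle pairs with a syntaxin and a SNAP-25 type protein on the target membrane. Munc18-type proteins, Unc13 and CAPS proteins prepare the complex, complexins hold and assist it, and synaptotagmins sense calcium. Every cell also uses SNAREs of these families for traffic between its internal membranes, so that the families hold both neuronal and general members.

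Signals are linear intensities without a unit. The low level, the mean of the 4 arrays' median log2 signals, was a signal of 78.8, and lower values were set to it for differences. Detection on an array began at a signal of 157.5, 1 log2 unit above the low level. It was called higher or lower between arrays where the brighter array was detected and the log2 difference was at least 2, a change of 4-fold. Folds against a signal under the low level are lower bounds, written "at least", and a dimmer signal above the low level but short of detection gets no fold. An array cannot tell fewer cells that express a gene from less RNA per cell.

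The labels were set against marker genes. On the array labelled HB9-GFP+, called the HB9-labelled array below, 10 of 10 pluripotency markers were detected and 0 of 7 motor neuron markers, with Mnx1 (the gene of HB9), Isl1, Isl2, Lhx3, Lhx4 and Chat all undetected, so these markers run against its label. Olig1 and Olig2, which are expressed in oligodendrocyte and motor neuron progenitors, were called higher on it than on the ES array. They had 619.7 and 320.6 on the HB9-labelled against 61.9 and 0.9 on the ES array. That array also had 8 of 8 fibroblast markers detected, against 1 of 8 on the ES array. The granule array had 8 of 10 granule neuron markers detected, 10 of 10 pan-neuronal ones and 6 of 8 neural stem cell markers. The Sox1 array had 8 of 8 neural stem cell markers, 10 of 10 pan-neuronal ones and 6 of 10 granule neuron markers. The summed pan-neuronal signal was 57854.5 on the granule array and 12691.8 on the Sox1 array. Pluripotency markers were detected on the Sox1 array too, 6 of 10, against 1 of 10 on the granule array. They summed to 7497.3 on the Sox1, 1875.5 on the granule and 101014.9 on the ES array, and their part in the results below was not tested. Markers of other cerebellar cells were detected on the granule array too, with 7 of 7 for astrocytes, 7 of 7 for oligodendrocytes, 6 of 7 for Purkinje cells and interneurons, 3 of 6 for microglia and blood, 6 of 8 for fibroblasts, and 0 of 5 for endothelium. Oligodendrocyte markers summed to 33549.7 on the granule, 1384.9 on the Sox1 and 3223.0 on the ES array, and astrocyte markers to 22241.5, 867.3 and 826.4 in the same order. Purkinje and interneuron markers summed to 10415.5 on the granule, 497.0 on the Sox1 and 429.1 on the ES array, and the part of these cells in the results below was not tested. The ratio of 3' to 5' signal of the actin control was 2.77 on the HB9-labelled, 2.29 on the granule, 5.08 on the Sox1 and 4.55 on the ES array. For the GAPDH control it was 1.37, 2.7, 3.68 and 1.99 in the same order. The 2 controls thus rank the granule and ES arrays in opposite order.

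Of the 76 members, 32 were detected on the HB9-labelled array, 56 on the granule, 40 on the Sox1 and 40 on the ES array. The background over all genes was 51.3% on the HB9-labelled, 52.5% on the granule, 51.6% on the Sox1 and 51.7% on the ES array, and the members' shares were 42.1%, 73.7%, 52.6% and 52.6% in the same order. Every array thus detected about the same share of all genes, while the members ranged more widely. There were 28 members detected on all 4 arrays, 17 on none and 13 on the granule array alone. The 28 included most syntaxins, Vamp2, Vamp3, Vamp4, Vamp7, Vamp8, Snap23, Snap29 and Snap47. The 13 seen on the granule array alone were Rab3c, Rims1, Snap25, Stxbp5, Sv2b, Syn2, Syn3, Syngr3, Syt4, Syt13, Syt16, Unc13a and Unc13c. The 17 undetected members included Syt2, Syt3, Syt5, Syt6, Syt8, Syt10, Syt12, Cplx3, Cplx4, Rims4, Sv2c, Syngr4, Unc13d and Vamp1, and no signal among the 17 exceeded the 142.2 of Stx11 on the HB9-labelled array. Absence of signal from a probe set does not show that its gene is silent.

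**Figure D1:**
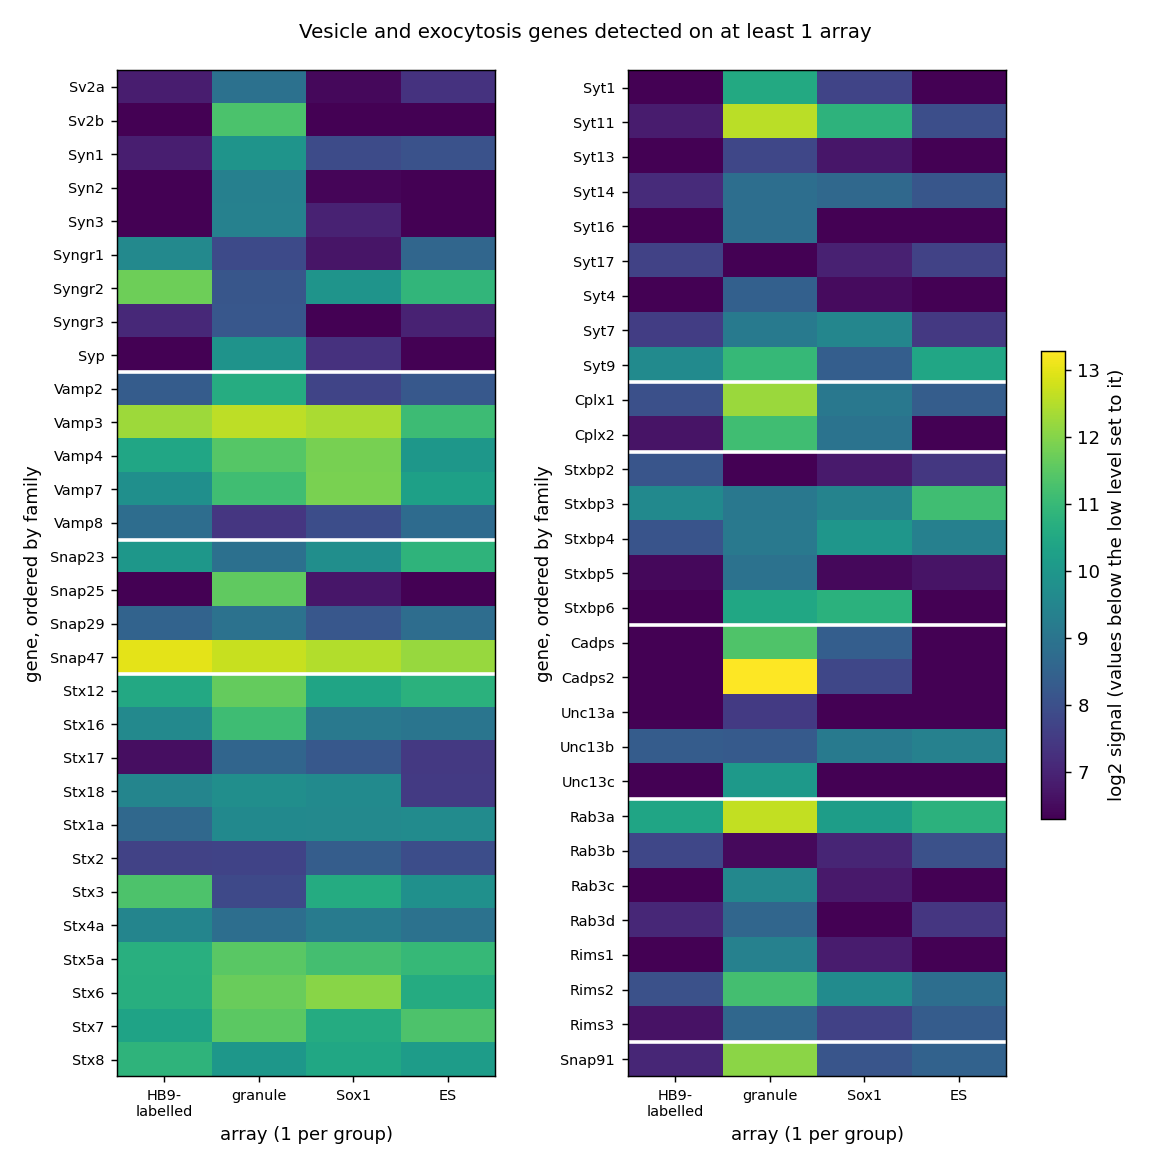
Log2 signal of the 59 members detected on at least 1 array (rows, ordered by family, with white lines between families) on each of the 4 arrays (columns), values below the low level being set to it. The granule column is brighter for Snap25, Cadps2, Sv2b and the synapsins. Snap47 and Vamp3 are bright in all 4 columns, and most syntaxins are detected in all 4.

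Between the granule and ES arrays, 23 of 76 members were higher and 2 lower. Over all genes, 7.15% were higher and 5.09% lower in this comparison, against 30.3% and 2.63% of the members. The median log2 difference was 0.60 over the members and 0.00 over all genes. Among genes detected on either of these arrays the medians were 1.45 for 59 members and -0.08 for all. The shares higher were 39.0% of those members and 11.8% of all genes, and the shares lower 3.39% and 8.40%. A gene detected on the granule but not the ES array can only be brighter on the granule array, and the reverse holds too. More members were of the first kind than of the second, so these figures are no separate check on direction. Between the granule and Sox1 arrays, 23 members were again higher and 1 was lower, with backgrounds of 3.89% higher and 2.14% lower. The median was 0.18 over the members and 0.00 over all genes. These comparisons share the granule array and are not independent. The mean over all probe sets of a gene, detected or not, was also put in place of the brightest. With it 14 members were higher between granule and ES arrays, against 4.29% of all genes. Between granule and Sox1 arrays 13 were higher, against 2.40%. The 10 members that lost the call between granule and ES arrays in that setting were Rab3c, Rims2, Stx18, Stxbp5, Syn2, Syn3, Syp, Syt1, Syt4 and Unc13c, and Rab3a gained one. Between granule and Sox1 arrays the 10 were Cplx2, Rab3c, Rab3d, Stxbp5, Syn2, Syn3, Syp, Syt1, Unc13c and Vamp2.

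**Figure D2:**
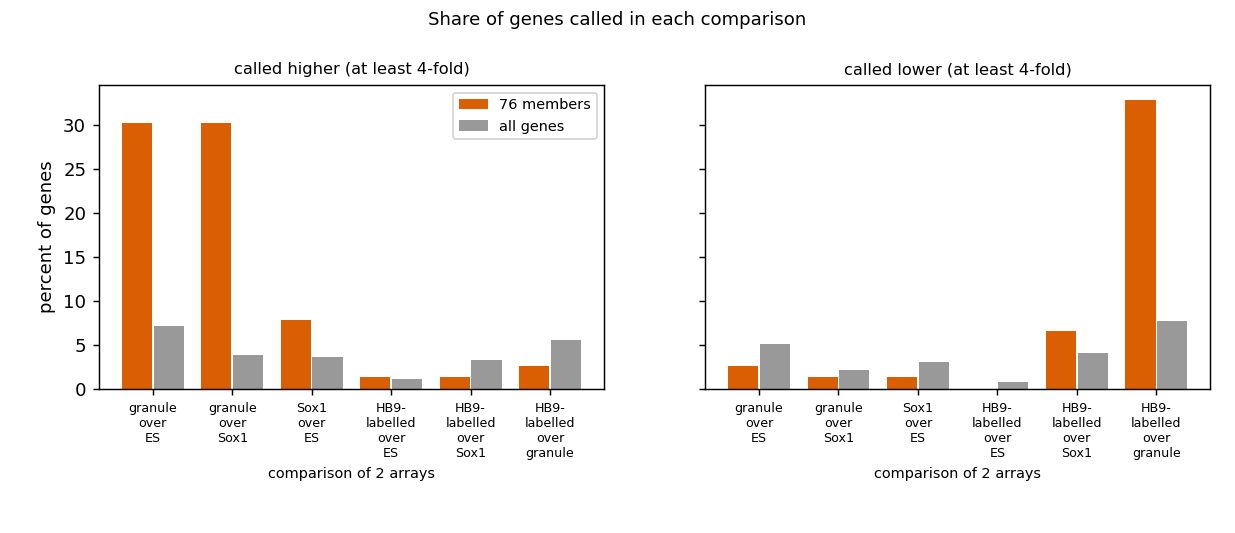
Percent of the 76 members (orange) and of all 18193 genes (grey) called higher (left) or lower (right) by at least 4-fold in each of 6 comparisons of 2 arrays. The members stand at 30.3% higher in both granule comparisons, against 7.15% and 3.89% of all genes, and at 1.32% higher between the HB9-labelled and ES arrays, against 1.15%.

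A stricter description asked which genes were at least 4-fold higher on one array than on each of the other 3. On the granule array 17 members met it, 22.4% of the 76, against 2.95% of all genes. They were Cadps, Cadps2, Cplx1, Cplx2, Rab3c, Rims1, Snap25, Snap91, Stxbp5, Sv2b, Syn2, Syn3, Syp, Syt1, Syt16, Unc13c and Vamp2. No member met it on the HB9-labelled, Sox1 or ES array, for which the backgrounds were 0.44%, 0.643% and 0.275%. Synapsins and vesicle membrane proteins, SNAREs, complexins, synaptotagmins, priming factors and active zone members were among the 17, and no syntaxin was. In the other direction, Stx18 was the only member at least 4-fold lower on the ES array than on each of the others, as were 0.214% of all genes.

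**Figure D3:**
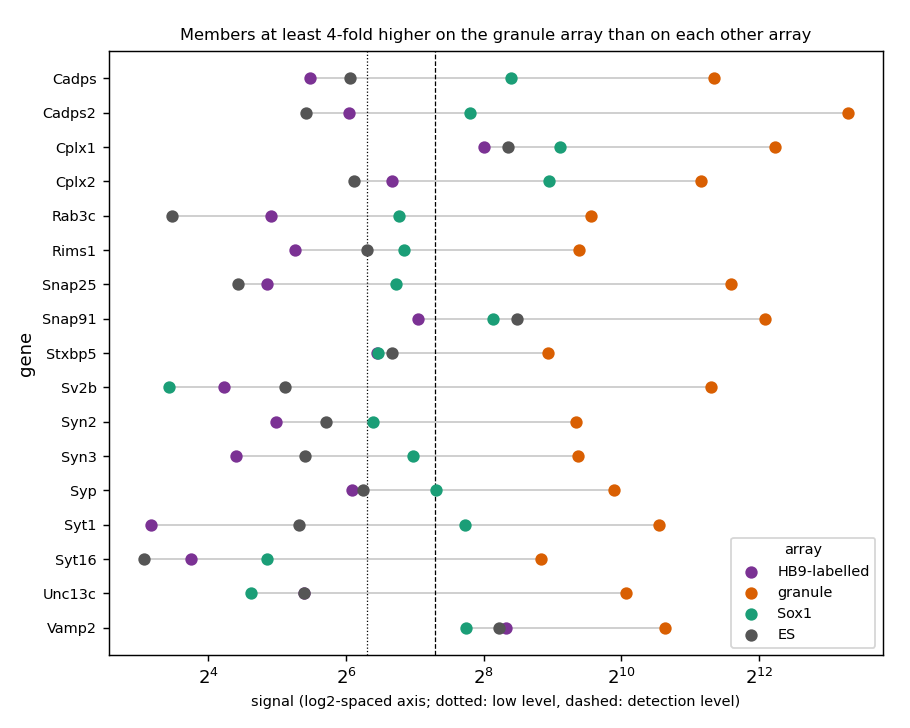
Signals of the 17 members set apart on the granule array (rows) on each of the 4 arrays (coloured points), on a log2-spaced axis with the low level (dotted) and the detection level (dashed). The granule point lies to the right in every row, and for Cadps, Cadps2, Cplx1, Cplx2, Snap91, Syp, Syt1 and Vamp2 at least 1 other array is also at or above detection.

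The proteins of the vesicle membrane and the synapsins, which tether vesicles to each other and to actin, had 4 of 11 members higher and 1 lower between granule and ES arrays, and 6 higher between granule and Sox1 arrays. Sv2b, a vesicle glycoprotein, had a signal of 18.8 on the HB9-labelled, 2522.5 on the granule, 10.8 on the Sox1 and 34.8 on the ES array. It was thus bright on the granule array and below the low level on the other 3, at least 32-fold higher on the granule array than on either the Sox1 or the ES array. Its relative Sv2a, which most neurons use, had 116.0, 478.0, 87.0 and 161.6 in the same order of arrays, and was called higher between granule and Sox1 arrays but not between granule and ES arrays. Sv2c was undetected throughout. Synaptophysin, Syp, an abundant vesicle membrane protein, had 68.2 on the HB9-labelled, 956.1 on the granule, 158.3 on the Sox1 and 76.0 on the ES array. It was at least 12.1-fold higher on the granule than on the ES array and 6.04-fold higher than on the Sox1 array, where it stood at the edge of detection.

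All 3 synapsin genes were brightest on the granule array. Syn1 had 119.4 on the HB9-labelled, 965.0 on the granule, 238.3 on the Sox1 and 265.9 on the ES array. Its log2 difference was 2.02 between granule and Sox1 arrays and 1.86 between granule and ES arrays, so that only the first was called. The 2 values differ by less than the 0.74 log2 units by which probe sets of a gene spread in the ES comparison. Syn1 itself had 1 probe set, so its own spread is not known. Syn2 had 31.5, 646.8, 84.4 and 52.5 in the same order, and Syn3 had 21.1, 659.3, 126.3 and 42.5. Both were detected on the granule array alone and were at least 8.21-fold and at least 8.37-fold higher there than on the ES array. With the mean over their probe sets the log2 differences were 0.72 for Syn2 and 0.49 for Syn3. That mean takes in probe sets that were undetected on every array. The other detected probe sets of Syn2 gave 2.71 and 2.64 between granule and ES arrays, and that of Syn3 gave 1.97.

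The synaptogyrins, vesicle proteins with both neuronal and general forms, did not move together. Syngr2, the form found widely outside the nervous system, had 3425.6 on the HB9-labelled, 286.4 on the granule, 964.7 on the Sox1 and 1918.8 on the ES array. It was 6.70-fold lower on the granule than on the ES array and 12-fold higher on the HB9-labelled than on the granule array, and a second probe set gave a log2 difference of -1.82 between granule and ES arrays. Syngr1, a neuronal form, was measured by 2 detected probe sets that disagreed. The brighter had 776.8 on the HB9-labelled, 233.6 on the granule, 103.9 on the Sox1 and 393.3 on the ES array, whereas the other had 249.2, 684.4, 224.9 and 315.9. The order of the arrays for Syngr1 therefore depends on the probe set. Syngr3 was detected on the granule array alone, at 291.8, and Syngr4 on none.

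Promoters of 59 of the 76 members were found in RefSeq (GRCm38.p6), each covering 250 bases before and 50 after an annotated start. They were searched on both strands for the arms of RE1, the element bound by the repressor REST that is known to keep neuronal genes such as Syn1 silent outside neurons. The left arm was CAGCACC and the right arm GGACAG, and a match of GGACAG can share its last letters, CAG, with a match of CAGCACC. Of 32851 promoters in the table, 7.1% held the left arm, 22.2% the right arm and 0.04%, or 12 promoters, both arms with 2 letters between them. Among the 75 promoters of members, 7 held the left arm, 18 the right arm and 0 both so spaced. There were 18 members higher in both granule comparisons, against 3.21% of all genes. Of these, 15 had a promoter here, of which 0 held the left arm and 5 (Cadps, Snap91, Stx16, Sv2b and Syt1) the right arm. These counts are of genes, and the 15 genes had 21 promoters between them. The 22.2% is a share of promoters, so the 5 of 15 cannot be set against it. A match is a description of letters, and no match says nothing of the element elsewhere. The promoters of Syn1 (chrX:20920869-20921168, minus strand), which holds the left arm followed after 2 letters by a right arm with 1 letter different, of Sv2b (chr7:75309213-75309512, minus strand), the only one of its 4 promoters here with a right arm, and of Cadps2 (chr6:23839372-23839671, minus strand), the member with the widest difference, are shown with the matches in capitals.
Syn1: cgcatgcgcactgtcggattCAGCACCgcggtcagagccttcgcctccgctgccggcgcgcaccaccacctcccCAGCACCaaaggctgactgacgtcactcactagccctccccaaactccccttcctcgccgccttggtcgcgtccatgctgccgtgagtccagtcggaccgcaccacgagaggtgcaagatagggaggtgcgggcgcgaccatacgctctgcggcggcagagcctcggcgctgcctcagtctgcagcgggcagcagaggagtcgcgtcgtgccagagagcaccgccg
Sv2b: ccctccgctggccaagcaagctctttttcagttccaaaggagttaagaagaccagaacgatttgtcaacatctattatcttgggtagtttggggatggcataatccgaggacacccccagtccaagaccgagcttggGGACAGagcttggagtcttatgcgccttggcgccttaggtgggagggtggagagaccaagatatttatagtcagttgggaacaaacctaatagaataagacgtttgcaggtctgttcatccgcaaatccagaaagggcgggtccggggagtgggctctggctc
Cadps2: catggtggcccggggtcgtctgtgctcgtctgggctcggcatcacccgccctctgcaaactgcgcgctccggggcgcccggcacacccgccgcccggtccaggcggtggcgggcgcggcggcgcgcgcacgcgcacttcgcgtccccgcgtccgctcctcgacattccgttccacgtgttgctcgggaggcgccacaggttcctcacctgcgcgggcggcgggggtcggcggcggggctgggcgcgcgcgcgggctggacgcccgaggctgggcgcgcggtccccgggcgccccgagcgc

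Among the SNAREs, Snap25 separated the arrays most. Snap25, the plasma membrane SNARE of neurons, had 28.8 on the HB9-labelled, 3079.7 on the granule, 106.2 on the Sox1 and 21.6 on the ES array, at least 39.1-fold higher on the granule than on the ES array. Its other probe set was dim, at 167.6 on the granule and 27.1 on the ES array, and gave a log2 difference of 1.09. Snap23, the form used by non-neuronal cells, ran the other way, with 1022.9 on the HB9-labelled, 471.7 on the granule, 864.8 on the Sox1 and 1838.7 on the ES array. Its log2 difference of -1.96 between granule and ES arrays fell just short of a call. Snap29, which acts on internal membranes, and Snap47 were detected on all 4 arrays and were called in none of the 6 comparisons.

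Of the VAMPs, 1 of 7 was higher in each granule comparison. Vamp2, the SNARE of synaptic vesicles, had 319.7 on the HB9-labelled, 1583.6 on the granule, 214.7 on the Sox1 and 300.3 on the ES array. It was detected on all 4 arrays, and was 5.27-fold higher on the granule than on the ES array and 7.38-fold higher than on the Sox1 array. Vamp1, which replaces Vamp2 at some synapses, was undetected. Vamp3, of recycling endosomes, ranged from 2177.7 to 6227.6 over the arrays, and Vamp4, of the Golgi network, from 1021.2 to 3738.0. Vamp7, of late endosomes and lysosomes, had 874.5 on the HB9-labelled and 3787.0 on the Sox1 array and was 4.33-fold lower on the HB9-labelled array, though its other probe set gave a log2 difference of only -1.01. Vamp8, of endosomes and secretory granules, had 443.9 on the HB9-labelled, 169.0 on the granule, 249.9 on the Sox1 and 431.1 on the ES array and was not called in any comparison.

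The syntaxins were the family with the most members on every array, with 11 of 14 detected on the HB9-labelled, 12 on the granule, 12 on the Sox1 and 12 on the ES array. Their median log2 difference between granule and ES arrays was 0.10, and 2 were called. Stx1a, a synaptic syntaxin, had 403.5 on the HB9-labelled, 789.2 on the granule, 763.9 on the Sox1 and 815.1 on the ES array. It was thus about level between the granule, Sox1 and ES arrays on this probe set, while a second probe set stayed under detection throughout. Stx16, of the trans-Golgi network, was 4.35-fold higher on the granule than on the ES array and 4.02-fold higher than on the Sox1 array, with 773.1 on the HB9-labelled, 2239.7 on the granule, 556.9 on the Sox1 and 515.1 on the ES array. Stx18, of the endoplasmic reticulum, had 720.5, 861.5, 798.3 and 178.2 in the same order, and its low value was on the ES array. Its 5 probe sets gave log2 differences between granule and ES arrays from 1.29 to 2.27.

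Stx3, which serves apical membranes of epithelia and ribbon synapses, was the only member lower on the granule than on the Sox1 array. It had 2572.6 on the HB9-labelled, 230.3 on the granule, 1553.7 on the Sox1 and 888.5 on the ES array, and was 6.75-fold lower on the granule than on the Sox1 array and 11.2-fold higher on the HB9-labelled than on the granule array. Of its other probe sets, a dimmer one gave a log2 difference of -1.38 between granule and Sox1 arrays, and 2 were undetected on both of these arrays. Stx2 and Stx4a, of the plasma membrane in many cells, were detected on all 4 arrays, from 203.0 to 327.1 and from 457.4 to 715.1, and were not called.

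The synaptotagmins were the largest family, with 8 of 16 detected on the granule array against 5 on the Sox1 and 5 on the ES array, and 3 on the HB9-labelled array. Syt1, the calcium sensor of fast release, had 9.0 on the HB9-labelled, 1501.3 on the granule, 212.3 on the Sox1 and 40.0 on the ES array. It was at least 19.1-fold higher on the granule than on the ES array and 7.07-fold higher than on the Sox1 array. Its 3 other probe sets were undetected on all 4 arrays, so that the value rests on 1 probe set. Syt11, which lacks the calcium-binding residues and is abundant in brain, had 114.2 on the HB9-labelled, 6067.4 on the granule, 1797.9 on the Sox1 and 252.0 on the ES array. It was 24.1-fold higher on the granule than on the ES array and 7.13-fold higher on the Sox1 than on the ES array. Its 5 probe sets agreed in order, with log2 differences of 3.26 to 4.99 between granule and ES arrays.

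The calls of 4 further synaptotagmins differed between comparisons. Syt4, a sensor with weak calcium binding found on dense core vesicles, had 28.1 on the HB9-labelled, 348.4 on the granule, 91.5 on the Sox1 and 50.6 on the ES array and was at least 4.42-fold higher on the granule than on the ES array. Syt16 had 13.5, 454.4, 28.9 and 8.4 in the same order, and was at least 5.77-fold higher on the granule array than on either the Sox1 or the ES array. Syt7, a slow high-affinity sensor, had 190.3 on the HB9-labelled, 580.1 on the granule, 731.7 on the Sox1 and 177.0 on the ES array. It was 4.13-fold higher on the Sox1 than on the ES array and fell short of a call between granule and ES arrays, with a log2 difference of 1.71. Syt9, a calcium sensor of some neurons and endocrine cells, had 806.1 on the HB9-labelled, 2017.6 on the granule, 332.5 on the Sox1 and 1382.6 on the ES array. It was the only member lower on the Sox1 than on the ES array, by 4.16-fold, and it was 6.07-fold higher on the granule than on the Sox1 array.

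Complexins bind the assembled SNARE complex. Cplx1 had 257.9 on the HB9-labelled, 4817.5 on the granule, 552.1 on the Sox1 and 326.0 on the ES array, and Cplx2 had 102.2, 2275.4, 494.9 and 69.4 in the same order. Both were highest on the granule array, with Cplx1 14.8-fold and Cplx2 at least 28.9-fold higher there than on the ES array. Cplx2 was also at least 6.28-fold higher on the Sox1 than on the ES array, though another probe set detected on the Sox1 array gave a log2 difference of only 1.42. Cplx3 and Cplx4, the retinal forms, had signals of at most 12.1.

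Among the priming factors, 3 of 6 were higher in each granule comparison, and Cadps2 had the widest log2 difference of all members. Cadps2, a CAPS protein that primes dense core vesicles and is known for neurotrophin release from granule cells, had 66.1 on the HB9-labelled, 10005.0 on the granule, 222.5 on the Sox1 and 43.0 on the ES array. It was at least 127-fold higher on the granule than on the ES array and 45.0-fold higher than on the Sox1 array. Its paralog Cadps had 44.4, 2618.0, 337.2 and 66.8 in the same order, and was at least 33.2-fold higher on the granule and at least 4.28-fold higher on the Sox1 than on the ES array. Cadps and Cadps2 were measured by 1 probe set each. Unc13c, the Munc13 form of cerebellar granule cells, had 42.1 on the HB9-labelled, 1074.3 on the granule, 24.7 on the Sox1 and 41.8 on the ES array, at least 13.6-fold higher on the granule array than on either the Sox1 or the ES array. Unc13a, the form used at most glutamate synapses, was detected on the granule array alone at 179.3, which is too near the detection level to be called. Unc13b, a broader form, had 325.5 on the HB9-labelled, 311.0 on the granule, 568.6 on the Sox1 and 665.2 on the ES array and was not called.

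Members of the syntaxin-binding family, which hold or release syntaxins, went in different directions. Stxbp6 (amisyn), a SNARE-binding inhibitor of complex assembly, had 45.2 on the HB9-labelled, 1405.8 on the granule, 1753.6 on the Sox1 and 64.7 on the ES array. It was high on both the granule and Sox1 arrays, at least 17.8-fold and at least 22.3-fold above the ES array, and its other probe set gave log2 differences of 1.66 and 2.38. Stxbp5 (tomosyn), also an inhibitor of SNARE assembly, had 87.6 on the HB9-labelled, 489.7 on the granule, 88.0 on the Sox1 and 102.0 on the ES array, and was called higher on the granule array in both comparisons. Stxbp3, the Munc18 form of non-neuronal cells, had 789.9 on the HB9-labelled, 552.1 on the granule, 688.6 on the Sox1 and 2268.1 on the ES array and was 4.11-fold lower on the granule than on the ES array, while a second probe set gave a log2 difference of -0.54. Stxbp2, the Munc18 form of blood and epithelial cells, was undetected on the granule and Sox1 arrays and had 280.4 on the HB9-labelled and 173.1 on the ES array.

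RIM proteins organise the active zone and bind Rab3 on the vesicle. Rims1 had 38.2 on the HB9-labelled, 666.6 on the granule, 114.4 on the Sox1 and 79.2 on the ES array, and Rims2 had 262.6, 2371.2, 814.5 and 456.6. Both were called higher between granule and ES arrays, Rims2 by 5.19-fold, and Rims1 also between granule and Sox1 arrays. Rims3 had 100.1, 400.1, 202.3 and 319.7 in the same order and was not called. Rab3a, the main Rab of synaptic vesicles, had 1353.1 on the HB9-labelled, 6410.8 on the granule, 1171.2 on the Sox1 and 1783.4 on the ES array. It was 5.47-fold higher on the granule than on the Sox1 array and fell short of 4-fold against the ES array, with a log2 difference of 1.85, although its other probe set gave 2.81. Rab3c had 30.0, 753.9, 108.7 and 11.1 in the same order of arrays and was at least 9.57-fold higher on the granule than on the ES array. Rab3d, a form of secretory cells, had 136.3 on the HB9-labelled, 389.5 on the granule, 72.9 on the Sox1 and 169.8 on the ES array and was at least 4.95-fold higher on the granule than on the Sox1 array. Rab3b was detected on the HB9-labelled array, at 222.4, and on the ES array, at 264.1, and was not called. Snap91 carries a SNAP symbol but is the neuronal clathrin adaptor AP180, which retrieves vesicle membrane, and not a SNARE. It had 131.9 on the HB9-labelled, 4337.6 on the granule, 281.6 on the Sox1 and 358.6 on the ES array and was 12.1-fold higher on the granule than on the ES array.

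**Figure D4:**
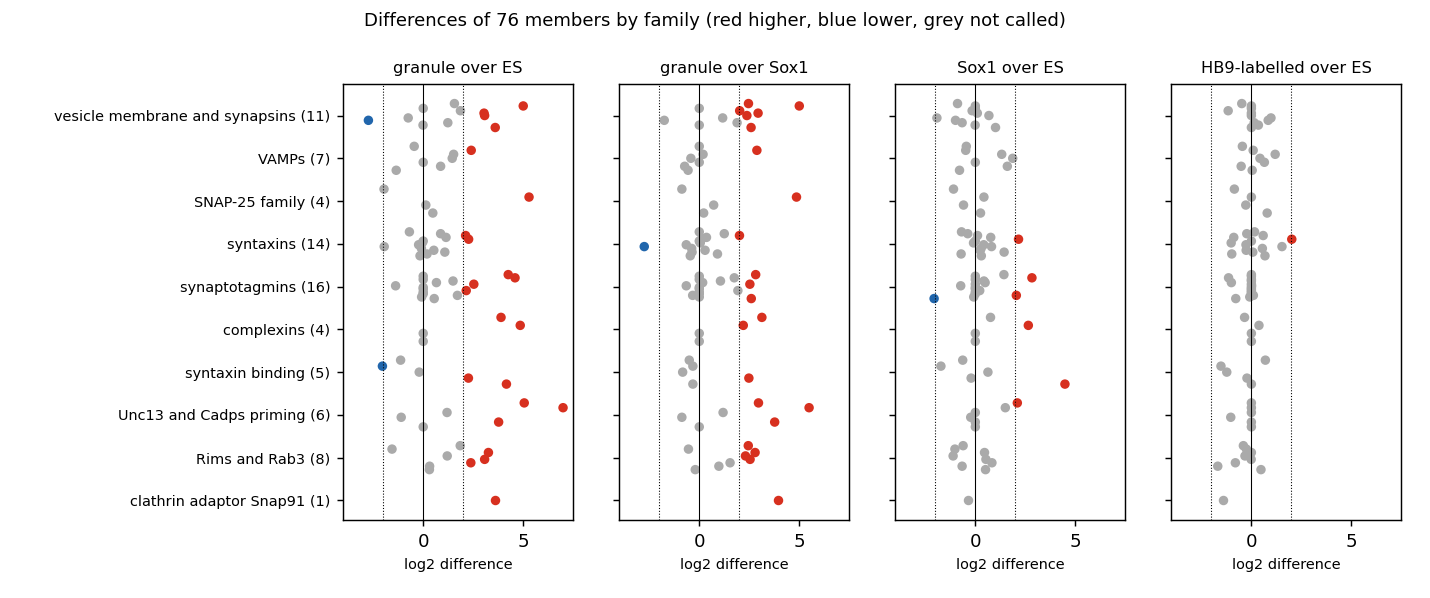
Log2 differences of the 76 members (points) by family in 4 comparisons of 2 arrays, with dotted lines at 2 log2 units either side of 0. Red points are called higher, blue points lower and grey points neither, and every family has at least 1 red point between granule and ES arrays while 1 point is red between the HB9-labelled and ES arrays.

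The Sox1 array was set against the ES array to see which members were higher on it. There were 6 of 76 higher and 1 lower, with backgrounds of 3.70% higher and 3.09% lower over all genes, against 7.89% and 1.32% of the members. The median log2 difference was 0.00 over the members and 0.00 over all genes. The higher members were Cadps, Cplx2, Stx18, Stxbp6, Syt7 and Syt11, and the lower one was Syt9. With the mean over probe sets Cplx2, Stx18 and Syt7 lost the call. A pseudocount of 32 took it from Cadps, Stx18, Syt7 and Syt9, and a low level 1 log2 unit higher from Cadps and Cplx2. Stxbp6 and Syt11 kept it in these 3 settings. Snap25 (106.2 on the Sox1 and 21.6 on the ES array), Sv2b and Unc13c were undetected on both. Syt1, Syp and Cadps2 were detected on the Sox1 array and not on the ES array, but differed by 1.43, 1.01 and 1.5 log2 units and were not called. Pan-neuronal markers were higher in 6 of 10 cases in this comparison, and their part in it was not tested.

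Between the HB9-labelled and ES arrays, 1 of 76 members was higher and 0 lower, while 1.15% of all genes were higher and 0.857% lower. The higher member was Stx18, by 4.04-fold. Its other 4 probe sets gave 1.24 to 1.72 log2 units and so fell short of a call. Some members were undetected on both arrays, among them Syt1, Snap25, Syp, Sv2b, Syn2, Syn3, Rims1, Cadps and Unc13c. Others were detected on both, among them Vamp2, Cplx1, Rab3a, Rims2 and Stx1a. Syn1 had 119.4 on the HB9-labelled and 265.9 on the ES array. Fibroblast markers were higher on the HB9-labelled than on the ES array in 7 of 8 cases. Against the Sox1 array the HB9-labelled array had 1 member higher (Syngr1, whose other probe set gave 0.15) and 5 lower (Cadps, Cplx2, Stxbp6, Syt11 and Vamp7), with backgrounds of 3.30% higher and 4.08% lower. Against the granule array it had 2 higher (Stx3 and Syngr2) and 25 lower, with backgrounds of 5.63% higher and 7.72% lower. The 3 comparisons share the HB9-labelled array, whose pluripotency and motor neuron markers run against its label.

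The spread among probe sets shows how far those of a gene differ on the same 2 arrays. It does not measure error between arrays, which 1 array per group cannot give. The pooled SD of a gene's log2 difference over its detected probe sets was 0.74 between granule and ES arrays over all genes and 0.82 over the members, and 18 hybridisation controls had an SD of 0.06. Of the 25 members called in this comparison, 17 had at least 2 detected probe sets. Their signs are no check, since a probe set detected on the granule array alone cannot give a difference below 0. Sizes differed between probe sets, as with Snap25 (5.29 and 1.09), Unc13c (3.77 and 1.67) and Stxbp6 (4.16 and 1.66). The representing probe sets of Rab3a, Snap47, Stx1a, Stx6, Stx18, Stxbp2 and Vamp3 are of the class whose probes may also bind other transcripts, so that their signals are less certain, and those of Cadps, Stx5a and Syn3 are of the class shared between transcripts. Without both classes Cadps has no probe set, and Syn3 and Stx18 lost their calls between granule and ES arrays, with 1.97 and 1.65.

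**Figure D5:**
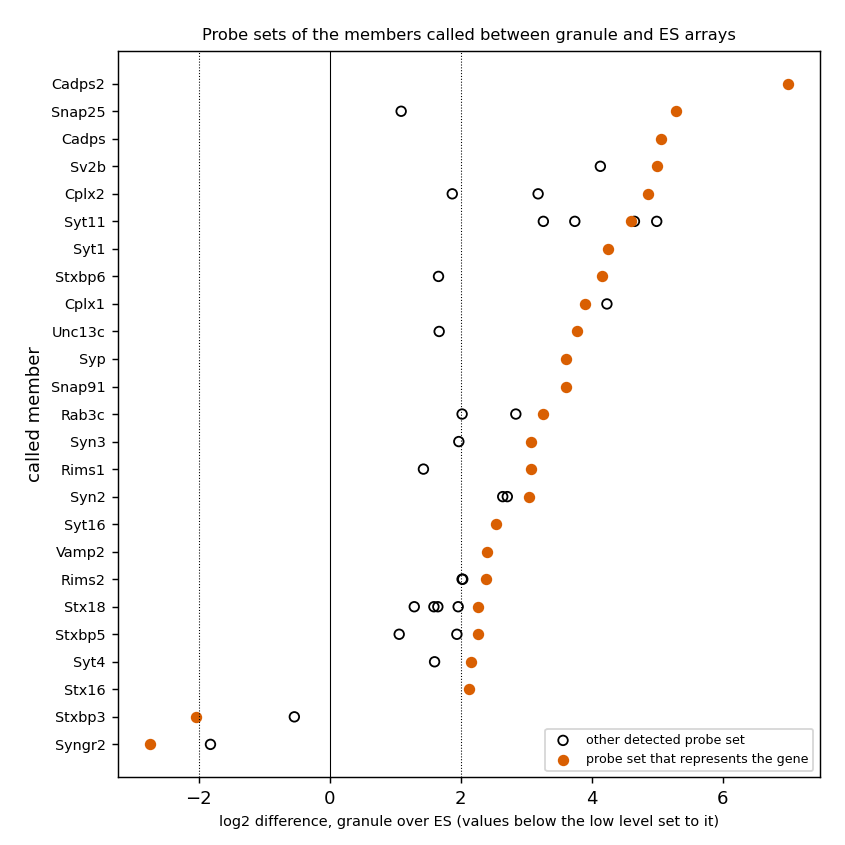
Log2 difference between granule and ES arrays of every detected probe set (points) of the 25 members called in that comparison (rows), with the representing probe set filled and dotted lines at 2 log2 units either side of 0. Several rows hold an open point short of the dotted line, and a probe set detected on the granule array alone cannot fall below 0, so that the side on which such points lie is fixed.

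Other presynaptic genes outside these families were examined in 6 lists between the granule and ES arrays, where 7.15% of all genes were higher and 5.09% lower. Active zone genes had 9 of 17 higher and 0 lower. Piccolo, Pclo, a scaffold of the active zone, had 18.1 on the HB9-labelled, 1643.3 on the granule, 221.8 on the Sox1 and 62.9 on the ES array, and the Munc18-binding Apba2 (Mint2, log2 difference 4.15) and Lin7a (4.15), which joins the same scaffold, were also higher. Dense core granule genes had 6 of 11 higher and 0 lower. Scg3, a granin, had 6.9 on the HB9-labelled, 7134.7 on the granule, 776.0 on the Sox1 and 21.9 on the ES array, and Scg5 and Chgb gave 5.05 and 4.74. Between the Sox1 and ES arrays 4 of these 11 and 1 of the 17 active zone genes were higher, beside 3.70% of all genes, and the difference between the lists was not tested.

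The remaining lists held fewer calls, and counts such as 1 of 15 or 1 of 8 lie near the share of all genes. Vesicle endocytosis genes had 4 of 17 higher and 0 lower, with Sh3gl2 (endophilin A1, 3.02), Dnm3 (2.52) and Itsn1 (2.04) the furthest. Transmitter loading genes had 1 of 15 higher, Slc17a6, the vesicular glutamate transporter VGLUT2, which had 18.1 on the HB9-labelled, 1972.2 on the granule, 85.8 on the Sox1 and 5.9 on the ES array. SNARE and docking regulators had 2 of 13 higher (Prrt1, 2.22, and Napb, 2.07) and 1 lower, Rab27a, the Rab of melanosomes and lytic granules, at 57.3 on the granule and 648.1 on the ES array. The exocyst, a general tether, had 8 of 8 members detected on all 4 arrays, 1 higher (Exoc5, 2.20) and 1 lower (Exoc6, -2.18).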

How the data were processed

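The deposited values are linear probe set intensities for 45101 probe sets on 4 arrays. Per the submitters' processing notes GCRMA was used (version not given in the sources used here), but each array's mean after trimming 2% at each end was 500.0, the form of a scaled signal, so how the authors made these intensities is uncertain. No detection flags were used, and such scaling removes differences in total RNA. Probe sets with a single symbol in the platform annotation numbered 34945, control probe sets left out. All 76 members matched a gene of the RefSeq annotation of GRCm38.p6 by identifier.

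Signals were put on the log2 scale without a pseudocount, with pandas 2.3.3 and numpy 2.4.6, and the calls followed the rule of size given above. The code for the calls was run on simulated arrays with small noise and known changes in bright genes only. That run checks the code and says nothing of how reliable the calls on these arrays are. Arrays were compared in 6 pairs by the sample labels, with no test, since each group has 1 array. The members, lists and rule of size were chosen with earlier results of these data known. Named members were those called in a comparison and a list of the best known members of each family, and at most 3 genes in each direction for the other lists. Listed genes without a probe set of a single symbol were not analysed here. A probe set with 2 symbols, 1 of them a member's, was left out. Alternatives changed the low level, pseudocount, normalization, probe set choice and fold.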

Additional observations from a re-analysis of the deposited data

How the results depend on the processing

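The counts are given in the order higher and lower, for the 76 members. With the low level 1 log2 unit higher, 3 were lower between HB9-labelled and Sox1 arrays, beside 3.01% of all genes. With no low level and no detection rule, 4 were lower between granule and ES, 3 lower between granule and Sox1, 11 higher and 2 lower between Sox1 and ES, 2 and 4 between HB9-labelled and ES, and 3 and 9 between HB9-labelled and Sox1 arrays. A pseudocount of 32 gave 1 lower between granule and ES, 3 and 0 between Sox1 and ES, and 0 higher between HB9-labelled and ES arrays. The shares of all genes were 5.69% lower, 3.78% and 3.4%, and 1.1% higher in the same order. Quantile normalization gave 4 lower between granule and ES arrays, beside 5.89% of all genes. Centring on reference genes gave 1 lower there, beside 3.49% of all genes. Centring gave 0 higher between the HB9-labelled and either the ES array (0.951% of all genes) or the Sox1 array (2.76%). It turned the sign of Syngr1 between HB9-labelled and Sox1 arrays to -0.01, because another probe set then stood for it. The mean over probe sets gave 14 higher between granule and ES, 13 and 0 between granule and Sox1, 3 higher between Sox1 and ES, 0 higher between HB9-labelled and ES, 0 and 3 between HB9-labelled and Sox1, 14 lower between HB9-labelled and granule arrays, and 25 detected on the ES array. Without probe sets ending in _x_at or _s_at, 0 were higher between HB9-labelled and ES and 2 between HB9-labelled and Sox1 arrays. The shares of all genes were 1.16% and 3.33% in the same order. A call at 1 log2 unit gave 35 and 9 between granule and ES, 2 lower between granule and Sox1, 13 and 6 between Sox1 and ES, 3 and 9 between HB9-labelled and ES, 4 and 18 between HB9-labelled and Sox1, and 8 and 40 between HB9-labelled and granule arrays. A call at 3 log2 units gave 0 lower between granule and ES, 6 and 0 between granule and Sox1, 1 and 0 between Sox1 and ES, 0 higher between HB9-labelled and ES, and 0 and 2 between HB9-labelled and Sox1 arrays. The shares of all genes called moved too. Between granule and ES arrays they were 12.2% higher and 13.3% lower with no low level, 4.29% and 3.91% with the mean over probe sets, 15.7% and 15.2% at 1 log2 unit and 3.38% and 1.90% at 3 log2 units. At 1 log2 unit they were 10.5% and 8.81% between granule and Sox1, 11.2% and 11.3% between Sox1 and ES, 6.73% and 7.03% between HB9-labelled and ES, 11.6% and 11.7% between HB9-labelled and Sox1, and 16.3% and 16.3% between HB9-labelled and granule arrays. With no low level they were 8.37% and 10.3% between Sox1 and ES, and 4.57% and 7.70% between HB9-labelled and ES arrays. They were 7.45% lower between granule and Sox1, and 9.47% and 11.2% between HB9-labelled and Sox1 arrays. At 3 log2 units they were 1.49% and 0.693% between granule and Sox1, and 1.54% and 0.951% between Sox1 and ES arrays. They were then 0.291% higher between HB9-labelled and ES, and 1.34% and 1.5% between HB9-labelled and Sox1 arrays. With the mean over probe sets they were 2.4% and 1.41% between granule and Sox1, and 2.13% higher between Sox1 and ES arrays. They were 0.781% higher between HB9-labelled and ES, and 2.53% and 2.24% between HB9-labelled and Sox1 arrays. Between HB9-labelled and granule arrays 4.75% were lower. The share of all genes detected in that setting was not counted. The cause of these changes was not tested beyond the construction of each alternative.

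Centring on reference genes moved the differences of detected genes by 0.48 between granule and ES, 0.44 between granule and Sox1 and -0.60 between HB9-labelled and granule arrays, and the share of all calls that were higher between granule and ES arrays to 74.7%, against 58.4%. Of 771 differences of single genes compared over these alternatives, 629 moved little, 141 moved more and 1 changed sign. Leaving the HB9-labelled array out of the low level and the choice of probe set, an alternative chosen after seeing the data, gave 23 and 2 between granule and ES, 23 and 1 between granule and Sox1, and 5 and 1 between Sox1 and ES arrays. No paired analysis was possible because each group has 1 array and the labels carry no replicate numbers, and for the same reason no array could be left out of its group. With 1 array per group, no difference can be set against the spread between samples.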
